A study of Rattus norvegicus with 6 samples.

Results

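The genes described here are the Wnt ligands, their Frizzled receptors, the secreted proteins that modulate them, and the co-receptors and transcription factors of the same pathway. They were chosen by name: every probe set with a single annotated symbol of the Wnt, Fzd, Sfrp, Dkk or Rspo families, or of Wif1, Lrp5, Lrp6, Ctnnb1, Axin1, Axin2, Lef1, Tcf7, Tcf7l1, Tcf7l2, Ror1, Ror2, Ryk or Porcn. This gave 66 of the 31099 probe sets on the array, for 40 genes of the 14217 that could be named. Rspo2, Rspo4, Ror1 and Ror2 had no such probe set and are not analysed here. A probe set is a group of short probes whose signals are combined into 1 value; 22 of the genes had 1 and 18 had several. Each gene is read by its brightest probe set, averaged over the 6 arrays and called the leading one, with the others given beside it.

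Gene expression was measured on 6 rat Affymetrix arrays, 3 of BDEsp-TDESM and 3 of BDEsp-TDECC, called TDESM and TDECC below. TDESM is a clonal cancer-associated fibroblastic strain with high expression of Acta2, the actin of myofibroblasts, and TDECC is a clonal cholangiocarcinoma (bile duct cancer) strain. Both came from tumours that grew in young adult male Fischer 344 rats after spontaneously transformed cholangiocytes, the BDEsp cells, had been placed in the bile duct. The labels give all 6 samples the same text on culture, an organotypic co-culture in rat collagen type I gel, and on treatment, the TGF-beta inhibitors SB 431542 and LY2157299, without saying which samples had received them, so neither was compared. Each strain is 1 clone. Separate cultures per array are not stated, and the p-values therefore cover array-to-array spread alone, which may be technical.

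All values are log2 intensities, so a difference of 1 is a 2-fold difference, and the array medians lay between 5.80 and 5.86. Arrays of one strain correlated across probe sets at 0.994 to 0.997 in TDESM and at 0.974 to 0.976 in TDECC, and arrays of different strains at 0.823 to 0.852. Of the markers of each strain, 6 of 6 myofibroblast genes, among them Col1a1 and Tagln, were higher in TDESM, and 6 of 6 epithelial and bile duct genes, among them Krt19 and Epcam, were lower in TDESM. The deposited table has no detection calls. For orientation, 22 markers of leukocytes, endothelium, hepatocytes and muscle had array medians of 4.30 to 4.44 in TDESM and 4.20 to 4.31 in TDECC. Single markers read higher, such as Ttr with means of 6.13 in TDESM and 6.18 in TDECC. Of these markers Tnnt2 was called higher in TDESM (6.82 against 4.82) and Pecam1 lower (3.43 against 3.80). The medians are therefore no cutoff for background. Whether a gene reading near the values of such markers was above background is not known. A difference from such a level may be understated.

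Wnt ligands are secreted, lipid-modified proteins that bind Frizzled receptors on the cell surface. When an Lrp5 or Lrp6 co-receptor joins them, the complex that destroys beta-catenin is held back, and beta-catenin enters the nucleus to work with the Tcf and Lef transcription factors. Other Wnt and Frizzled pairs act without beta-catenin, on cell polarity and movement. In the liver and bile ducts the pathway is known for its part in zonation, regeneration and tumour growth.

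The question was which of these genes differ between the fibroblast and the tumour cell clone. Of the 40 genes, 10 were higher and 7 lower in TDESM by limma at a Benjamini-Hochberg adjusted p of 0.05, and 23 did not pass. Over all 14217 genes, 42.1% passed (21.8% higher and 20.3% lower), so the members' count of calls was close to the background and nothing is read from their number. By probe set, 14 of 66 were higher and 12 lower, where 36.9% of all 31042 tested probe sets passed (17.9% higher and 19.0% lower). The arrays of the strains did not overlap for 20 of the 40 genes, against 53.6% of all genes, and for 31 of the 66 probe sets, against 48.9% of all probe sets. The members' median difference was 0.09, against 0.0033 for all genes. What follows is therefore which members differed and by how much. A single gene with non-overlapping arrays has an exact two-sided permutation p of 0.1, the smallest that 3 against 3 arrays allow, so each call rests on the spread that limma pools over all probe sets.

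**Figure D1:**
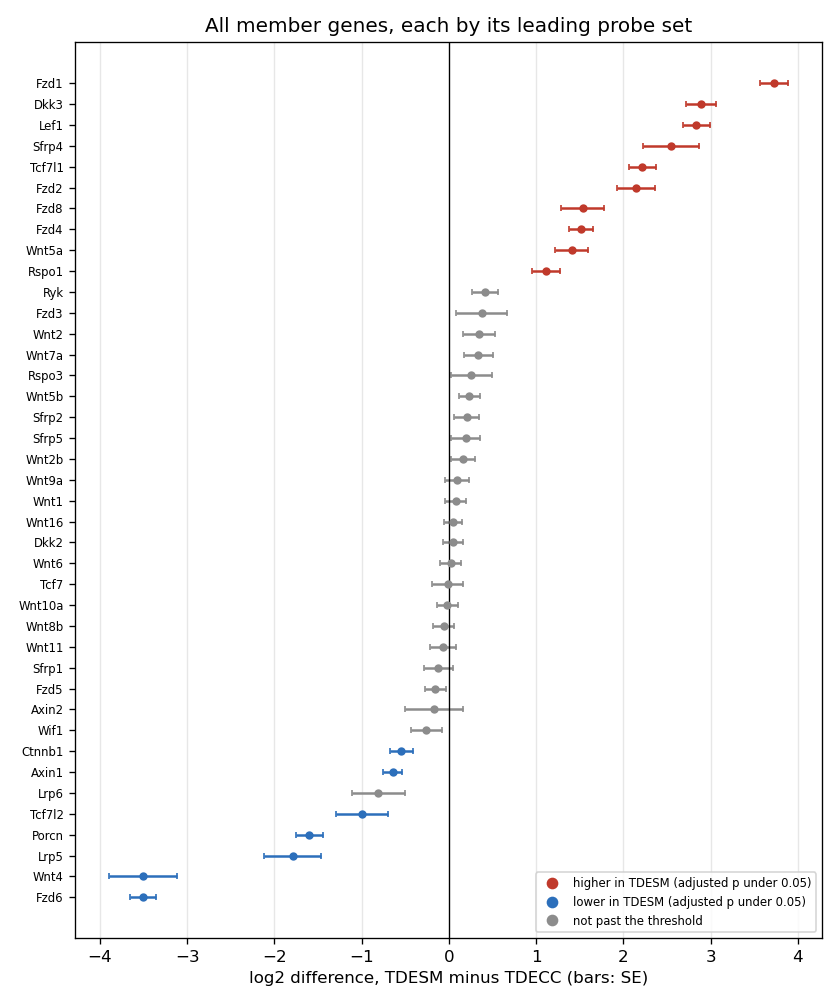
Log2 difference of each of the 40 genes by its leading probe set, TDESM minus TDECC, with bars of 1 standard error; red and blue points passed an adjusted p of 0.05. Fzd1 has the highest difference, at 3.73, and Fzd6 the lowest, at -3.51; centred on poly-A controls, Rspo1 among the called genes turns to -0.16.

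All differences are relative to the median gene, since the arrays were scaled to the same distribution. Centring on the added poly-A control transcripts put the median difference of all probe sets at -1.30, and centring on housekeeping genes put it at 0.45, against -0.02 as deposited. With the poly-A centring limma gave Wnt4, Wnt5a, Fzd1 and Fzd2 the same SE of 0.32, despite their unequal SE as deposited. Adjusted p-values with that centring therefore do not follow each gene's own spread, and its calls are given with this limit. The 10 housekeeping genes were not level between the strains: 2 were called higher and 4 lower in TDESM, against 21.8% and 20.3% of all genes. Their differences ran from -1.76 to 0.89, which limits what a call lost with that centring can show. Of the 10 higher members 9 kept their sign under every scaling and Rspo1 did not, at -0.16 with the poly-A controls. The 7 lower members all kept theirs. Each centring takes 1 value off all genes of an array, so every difference moves alike. Signs kept under a centring thus follow from the size of the deposited differences and are no separate check. In RNA of whole cultures, fewer cells that express a gene and less of its RNA per cell cannot be told apart.

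Among the ligands, Wnt4 was lower and Wnt5a higher in TDESM, and the other 11 of 13 genes did not pass. Of all genes 21.8% were higher and 20.3% lower. Wnt4, a ligand known for its part in kidney and reproductive tract development, read 6.95, 7.20 and 7.22 on the TDESM arrays, against 10.12, 11.60 and 10.16 on the TDECC arrays. Every TDESM array lay below every TDECC array, and the highest TDECC value, on replicate 2, stood more than 1 log2 unit above the other TDECC values. The difference was -3.50 (SE 0.39, limma adjusted p = 4.50e-04), an 11.3-fold lower level in TDESM. Wnt5a, the best known ligand of signalling without beta-catenin, averaged 5.93 ± 0.13 in TDESM and 4.53 ± 0.36 in TDECC (SD, n = 3 each), a difference of 1.41 (limma adjusted p = 0.00125). With the poly-A centring the difference was 0.13 and did not pass (adjusted p = 0.691).

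The other ligand genes were Wnt1, Wnt2, Wnt2b, Wnt5b, Wnt6, Wnt7a, Wnt8b, Wnt9a, Wnt10a, Wnt11 and Wnt16. Their probe sets, with the second ones of Wnt2, Wnt6, Wnt7a and Wnt11, made up 15 that did not pass. These read 3.32 to 6.57 on the TDESM arrays and 3.37 to 6.47 on the TDECC arrays, with differences from -0.17 to 0.35 (limma adjusted p = 0.163 to 0.933). With such values these data cannot say whether the ligands were expressed in either strain. Within each array the log2 ratio of Wnt5a to Wnt4, which no scaling by an array-wide constant can move, differed by 4.91 between TDESM and TDECC, with no overlap (exact two-sided permutation p = 0.1, the smallest possible). That pair, and the further pairs given below, 6 in all, were chosen after their values were seen. In each, every TDESM array lay above every TDECC array for the first gene and below for the second. The lack of overlap of the ratios and their permutation p of 0.1 therefore follow from the choice and add no evidence.

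**Figure D2:**
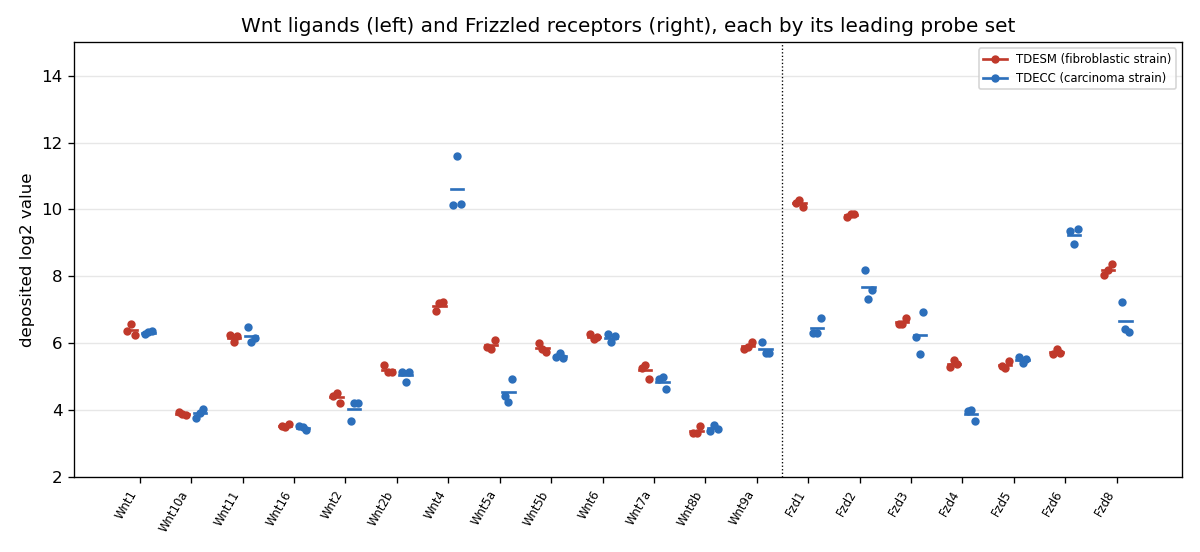
Deposited log2 value of each array (points) and the mean of 3 arrays (lines) for 13 Wnt ligand genes and 7 Frizzled genes, TDESM in red left of TDECC in blue. Wnt4 and Fzd6 lie lower in TDESM, Fzd1, Fzd2, Fzd4, Fzd8 and Wnt5a higher, and the other genes, which did not pass, differ by at most 0.38.

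The 7 Frizzled genes encode receptors that bind Wnt proteins. Of them 4 were higher in TDESM, 1 was lower and 2 did not pass (21.8% of all genes were higher and 20.3% lower). Nothing is read from this count. Fzd1 read 10.19, 10.29 and 10.07 in TDESM, against 6.31, 6.30 and 6.75 in TDECC. That was a 13.3-fold higher level in TDESM with a difference of 3.73 (SE 0.16, limma adjusted p = 3.79e-06), and the strains lay far apart compared with the spread within each. Fzd2 read 9.78, 9.86 and 9.88 in TDESM, against 8.18, 7.31 and 7.59 in TDECC. It was higher in TDESM by 2.15 (SE 0.22, limma adjusted p = 3.09e-04). Fzd8 averaged 8.20 ± 0.17 in TDESM and 6.66 ± 0.49 in TDECC (SD, n = 3 each), a difference of 1.53 (limma adjusted p = 0.00274).

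Fzd4, known as the receptor of norrin in retinal vessels, read 5.28, 5.50 and 5.38 in TDESM, against 3.96, 3.99 and 3.67 in TDECC by its leading probe set, a difference of 1.51 (SE 0.14, limma adjusted p = 1.58e-04). Its other probe set read 4.44, 4.59 and 4.21 in TDESM, against 3.45, 4.15 and 4.11 in TDECC, a difference of 0.51 that did not pass (limma adjusted p = 0.113), and the mean of both gave 1.01. Both probe sets lay higher in TDESM without overlap, by unequal amounts. Centred on the poly-A controls, Fzd1 (2.46) and Fzd2 (0.87) still passed, while Fzd4 (0.24) and Fzd8 (0.26) did not.

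Fzd6, a Frizzled known from mouse for hair follicle patterning, was the 1 family member called lower in TDESM under the deposited scaling. It read 5.68, 5.82 and 5.72 in TDESM, against 9.36, 8.96 and 9.42 in TDECC. The difference of -3.51 (SE 0.15, limma adjusted p = 4.15e-06) is an 11.4-fold lower level, opposite in sign to that of Fzd1. Within each array the log2 ratio of Fzd1 to Fzd6 differed by 7.24 between TDESM and TDECC, and that of Fzd8 to Fzd6 by 5.04, each without overlap (exact two-sided permutation p = 0.1). Fzd3 (6.63 ± 0.09 in TDESM and 6.26 ± 0.62 in TDECC, SD, n = 3 each) and Fzd5 (5.35 ± 0.11 in TDESM and 5.51 ± 0.10 in TDECC) did not pass. Fzd3 passed as higher without TDECC replicate 3 (0.71, limma adjusted p = 0.0224) and with housekeeping centring (0.85, 0.0275). Centred on the poly-A controls it had the opposite sign and passed as lower (-0.90, limma adjusted p = 0.00636), as did 80.0% of all genes.

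Among the other receptors, Lrp5 was lower in TDESM, and Lrp6 and Ryk did not pass by their leading probe sets. Lrp5, a co-receptor of the beta-catenin branch, read 5.21, 4.89 and 5.58 in TDESM, against 6.77, 7.73 and 6.55 in TDECC, a difference of -1.79 (SE 0.33, limma adjusted p = 0.00485). Its second probe set gave 4.46, 4.99 and 5.16 in TDESM, against 6.47, 7.22 and 6.33 in TDECC, a difference of -1.80. Both probe sets separated the strains by nearly the same amount. Within each array the log2 ratio of Fzd2 to Lrp5 differed by 3.94 between TDESM and TDECC (exact two-sided permutation p = 0.1).

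Lrp6, the closest relative of Lrp5, read 6.81, 6.58 and 6.0 in TDESM, against 7.19, 7.80 and 6.82 in TDECC. The strains just failed to overlap, at 6.81 and 6.82, and the difference of -0.81 did not pass (SE 0.30, limma adjusted p = 0.0778). Lrp6 passed without TDECC replicate 3 (-1.03, limma adjusted p = 0.0376). It also passed as lower with the poly-A centring (-2.08), as did 80.0% of all genes. Ryk, a receptor-like kinase that binds Wnt proteins, read 9.92, 9.95 and 9.98 in TDESM, against 9.81, 9.47 and 9.33 in TDECC by its leading probe set, a difference of 0.41 (limma adjusted p = 0.0677). It passed by its second probe set, with 9.68, 9.63 and 10.04 in TDESM, against 9.16, 8.74 and 8.87 in TDECC (0.86, limma adjusted p = 0.00643), and without TDECC replicate 1 (0.55, limma adjusted p = 0.0111). It also passed with cyclic loess (0.40, limma adjusted p = 0.0330), with housekeeping centring (0.89, 0.00707) and by the mean of its probe sets (0.64, 0.0119). Centred on the poly-A controls its leading probe set had the opposite sign and passed as lower (-0.86, limma adjusted p = 0.00887), again as did 80.0% of all genes. Both genes' calls thus turned on a single array or a choice of probe set or scaling.

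Porcn, the acyltransferase that attaches the lipid to Wnt proteins before they leave the cell, was lower in TDESM. It read 6.47, 6.36 and 6.75 in TDESM, against 8.17, 8.29 and 7.92 in TDECC, a difference of -1.60 (SE 0.16, limma adjusted p = 2.47e-04). The second probe set gave 5.71, 5.82 and 5.75 in TDESM, against 7.25, 7.48 and 6.87 in TDECC, a difference of -1.44 (limma adjusted p = 5.95e-04). Neither probe set had an overlap between strains.

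The secreted modulators belong to families known for modulating Wnt signals outside the cell. Of their 9 genes 3 were higher in TDESM, where 21.8% of all genes were higher and 20.3% lower. The other 6 did not pass by their leading probe sets. Dkk3, a divergent member of the Dickkopf family, read 8.99, 9.14 and 9.14 in TDESM, against 6.55, 5.99 and 6.05 in TDECC, a difference of 2.89 (SE 0.17, limma adjusted p = 1.99e-05). Its 3 other probe sets read 3.08 to 5.39 in TDESM and 3.08 to 5.26 in TDECC and did not pass (limma adjusted p = 0.584 to 0.840). The call of Dkk3 thus rests on 1 of its 4 probe sets, the brightest of them, and with the mean of all the difference was 0.74 (limma adjusted p = 0.00137).

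Sfrp4, a secreted protein with a Frizzled-like domain that binds Wnt proteins, read 7.48, 7.48 and 7.65 in TDESM, against 4.45, 4.77 and 5.76 in TDECC. The difference was 2.54 (SE 0.32, limma adjusted p = 8.00e-04), with TDECC replicate 3 nearest to TDESM. Its other probe set read 3.74, 3.55 and 3.36 in TDESM, against 3.74, 3.31 and 3.73 in TDECC, and did not separate the strains (limma adjusted p = 0.874), so the mean of both gave 1.25. Rspo1, an R-spondin that strengthens Wnt signals by keeping receptors at the surface, averaged 5.34 ± 0.04 in TDESM and 4.23 ± 0.29 in TDECC (SD, n = 3 each), a difference of 1.11 (limma adjusted p = 0.00162) that turned to -0.16 when centred on the poly-A controls.

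Sfrp1, another Frizzled-related protein, depended on the probe set. Its leading probe set read 4.51, 4.62 and 4.39 in TDESM, against 4.42, 4.52 and 4.95 in TDECC, and did not pass (limma adjusted p = 0.622). A second one read 4.88, 4.67 and 4.99 in TDESM, against 3.92, 3.82 and 3.88 in TDECC, a difference of 0.97 that passed (limma adjusted p = 8.79e-04). The third read 4.39, 4.32 and 4.10 in TDESM, against 4.29, 4.36 and 4.04 in TDECC (limma adjusted p = 0.860). Of the 3, only the second separated the strains. The mean of the 3 passed as higher in TDESM (0.30, limma adjusted p = 0.0483).

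The 13 modulator probe sets that did not pass, which include those of Dkk2, Rspo3, Sfrp2, Sfrp5 and Wif1, read 2.89 to 5.39 in TDESM and 2.71 to 5.29 in TDECC. Wif1, which binds and sequesters Wnt proteins, passed without TDECC replicate 3 (-0.44, limma adjusted p = 0.0231, against -0.26 and an adjusted p of 0.310 over all arrays), and had the opposite sign, at 0.22, when centred on housekeeping genes.

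**Figure D3:**
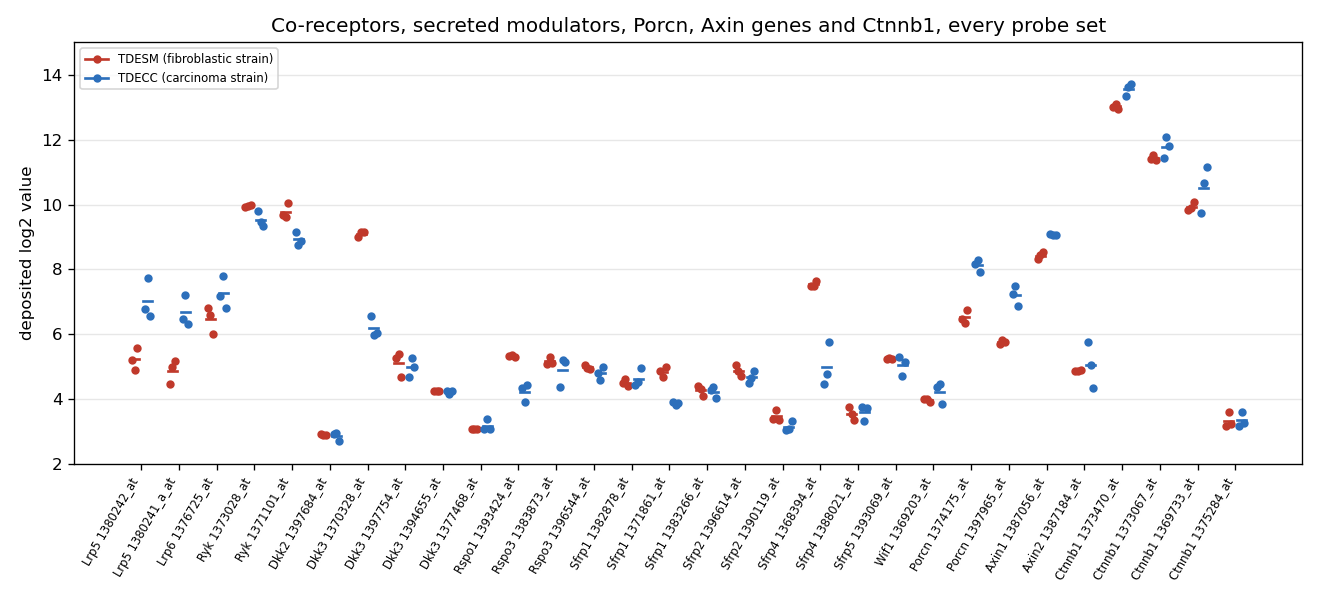
Deposited log2 value of each array (points) and the mean of 3 arrays (lines) for every probe set of the co-receptors, secreted modulators, Porcn, the Axin genes and Ctnnb1, TDESM in red left of TDECC in blue. Both probe sets of Lrp5 and of Porcn lie lower in TDESM, whereas 1 of 4 for Dkk3 and 1 of 2 for Sfrp4 lies higher.

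Ctnnb1, which encodes beta-catenin, was called lower in TDESM by 1 of its 4 probe sets. The leading probe set read 13.00, 13.11 and 12.96 in TDESM, against 13.36, 13.63 and 13.71 in TDECC, a difference of -0.54 (SE 0.13, limma adjusted p = 0.0164). The others did not pass: 1 read 11.41, 11.54 and 11.36 in TDESM, against 11.42, 12.07 and 11.82 in TDECC, and another 9.84, 9.90 and 10.07 in TDESM, against 9.75, 10.66 and 11.16 in TDECC. The dimmest read 3.17, 3.60 and 3.22 in TDESM, against 3.16, 3.61 and 3.27 in TDECC. The call was lost without TDESM replicate 1 (limma adjusted p = 0.0638) or 3 (0.0627), with the mean of the probe sets (-0.37, adjusted p = 0.145) and centred on housekeeping genes (-0.07, adjusted p = 0.823). Beta-catenin is controlled mostly as a protein, which the arrays do not read.

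Axin1, a scaffold of the complex that destroys beta-catenin, averaged 8.43 ± 0.12 in TDESM and 9.07 ± 0.03 in TDECC (SD, n = 3 each), a difference of -0.64 (limma adjusted p = 0.00378). Its call was lost when centred on housekeeping genes (-0.17, adjusted p = 0.539). Axin2, its relative and a widely used target gene of beta-catenin, read 4.85, 4.87 and 4.91 in TDESM, against 5.77, 5.05 and 4.33 in TDECC. The TDECC arrays lay on both sides of all the TDESM values and the difference of -0.17 did not pass (SE 0.33, limma adjusted p = 0.737). Without TDECC replicate 1 it was 0.19, and centred on housekeeping genes 0.30.

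The Tcf and Lef factors, which carry the beta-catenin signal to DNA, split: Lef1 and Tcf7l1 were higher in TDESM, Tcf7l2 was lower, and Tcf7 did not pass. Lef1, an activating factor, read 7.47, 7.69 and 7.72 in TDESM, against 5.05, 4.73 and 4.59 in TDECC, a difference of 2.84 (SE 0.16, limma adjusted p = 1.33e-05). Its second probe set read 6.75, 6.85 and 6.99 in TDESM, against 4.44, 4.59 and 4.49 in TDECC, a difference of 2.36 (limma adjusted p = 8.43e-06). By both probe sets every TDESM array lay above every TDECC array.

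Tcf7l1, known mostly as a repressing factor, read 7.70, 7.73 and 7.73 in TDESM, against 5.19, 5.70 and 5.62 in TDECC, a difference of 2.22 (SE 0.16, limma adjusted p = 4.82e-05). Its second probe set gave 6.74, 6.13 and 6.16 in TDESM, against 3.77, 4.61 and 4.27 in TDECC, a difference of 2.13 (limma adjusted p = 6.95e-04). The strains did not overlap by either. Centred on the poly-A controls the leading probe sets of Lef1 (1.56) and Tcf7l1 (0.94) remained higher and still passed.

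Tcf7l2, the main factor of this family in intestinal epithelium, had 5 probe sets, of which 4 were lower in TDESM and 1 did not pass. The leading one read 9.33, 9.49 and 9.47 in TDESM, against 9.88, 11.12 and 10.27 in TDECC, a difference of -0.99 (SE 0.30, limma adjusted p = 0.0370). Another probe set read 4.72, 4.80 and 4.89 in TDESM, against 6.94, 8.14 and 7.09 in TDECC, a difference of -2.59 (SE 0.31, limma adjusted p = 6.06e-04). Thus the size of the difference varied with the probe set.

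Yet another probe set of Tcf7l2 read 5.07, 4.54 and 4.70 in TDESM, against 6.77, 7.76 and 5.94 in TDECC, a difference of -2.05 (limma adjusted p = 0.00850). A further one differed by -0.51 (limma adjusted p = 0.0452), with 6.03, 6.02 and 5.85 in TDESM, against 6.17, 6.57 and 6.68 in TDECC. The last, at 5.88, 6.05 and 6.28 in TDESM, against 5.52, 7.26 and 6.32 in TDECC, overlapped (limma adjusted p = 0.626). The leading probe set's call was lost without any 1 TDESM replicate (limma adjusted p = 0.101 to 0.116) or without TDECC replicate 3 (0.0582), and centred on housekeeping genes (-0.52, adjusted p = 0.249), whereas the mean of all 5 gave -1.29 (adjusted p = 0.00926). TDECC replicate 2 gave the highest value on 4 of the 5 probe sets.

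Tcf7, an activating factor best known from T cells, read 6.0, 5.92 and 6.28 in TDESM, against 5.83, 6.36 and 6.05 in TDECC, with a difference of -0.01 (SE 0.17, limma adjusted p = 0.964). Within each array the log2 ratio of Lef1 to Tcf7l2 differed by 3.83 between TDESM and TDECC, and that of Tcf7l1 to Tcf7l2 by 3.21, each without overlap (exact two-sided permutation p = 0.1). These ratios show unequal change between the factors, not the direction of either.

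**Figure D4:**
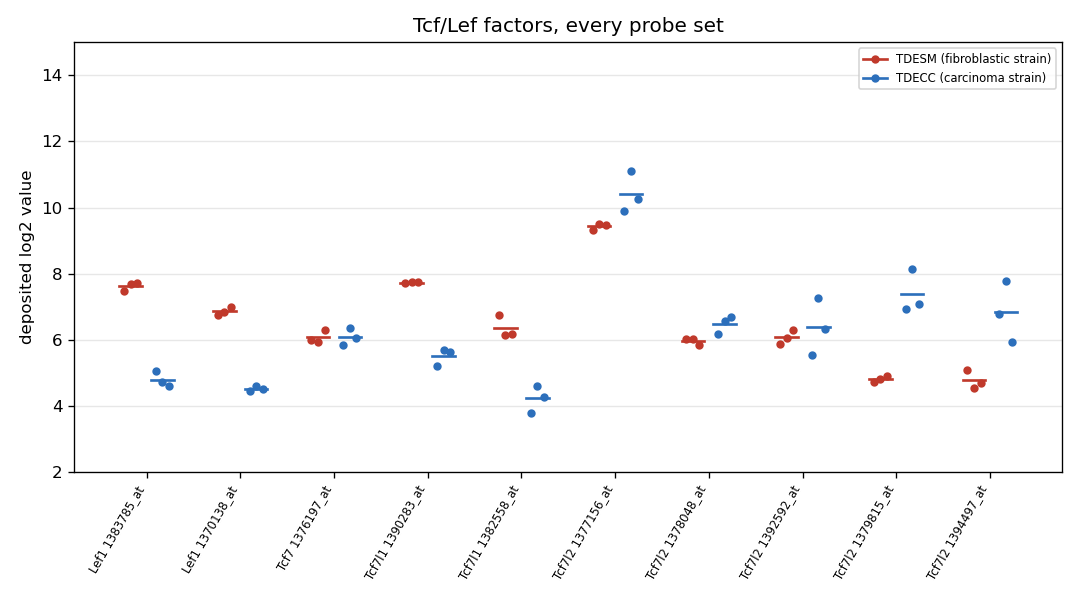
Deposited log2 value of each array (points) and the mean of 3 arrays (lines) for all 10 probe sets of Lef1, Tcf7, Tcf7l1 and Tcf7l2, TDESM in red left of TDECC in blue. Both probe sets of Lef1 and of Tcf7l1 lie higher in TDESM, 4 of 5 for Tcf7l2 lie lower, and Tcf7 overlaps.

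The short sequence CTTTGAT, the core of the site that Tcf and Lef proteins bind, was searched on both strands of the RefSeq promoters (build GRCr8, 250 bases before to 50 after each start site). Of the 40 genes 29 had a promoter in that table, and 2 of them (6.9%) held a match, against 3.63% of all 33469 promoters. The genes were Axin2 and Tcf7, neither of which differed past the threshold. Their promoters are shown because they are the only members' promoters with a match, which is in capitals and begins 132 bases before the start site of Axin2 and 4 bases before that of Tcf7. The first is chr10:94398535-94398834 on the plus strand and the second chr10:36954230-36954529 on the minus strand, and a match does not show that a factor binds there.
Axin2: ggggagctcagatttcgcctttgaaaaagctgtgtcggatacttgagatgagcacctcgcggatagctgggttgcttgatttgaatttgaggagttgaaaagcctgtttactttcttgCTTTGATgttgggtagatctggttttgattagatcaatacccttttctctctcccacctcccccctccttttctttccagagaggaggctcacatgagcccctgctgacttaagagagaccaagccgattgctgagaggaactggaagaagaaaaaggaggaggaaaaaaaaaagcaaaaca
Tcf7: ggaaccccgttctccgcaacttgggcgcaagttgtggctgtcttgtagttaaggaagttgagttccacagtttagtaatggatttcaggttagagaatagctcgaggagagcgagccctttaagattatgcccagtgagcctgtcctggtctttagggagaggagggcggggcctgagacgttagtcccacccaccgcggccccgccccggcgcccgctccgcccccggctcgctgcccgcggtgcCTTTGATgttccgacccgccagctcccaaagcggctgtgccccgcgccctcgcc

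Other genes of the pathway were read from 4 lists of 67 genes, of which 59 were measured. Of these 19 were higher and 11 lower in TDESM, against 21.8% and 20.3% of all genes, with a median difference of 0.08 against 0.0033. The lower count was 7 without TDESM replicate 2 and likewise without TDESM replicate 3, where the share of all genes called lower was also smaller, at 14.7% and 16.0%.

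Of 12 secretion and receptor partners, 5 were higher in TDESM and the other 7 did not pass (21.8% of all genes were higher and 20.3% lower). Wls, which carries Wnt proteins to the cell surface, read 11.27, 11.44 and 11.21 in TDESM, against 8.32, 8.42 and 9.21 in TDECC, a difference of 2.66 (SE 0.24, limma adjusted p = 1.73e-04), opposite in sign to that of Porcn. Ptk7, a pseudokinase of the planar polarity branch, was higher by 2.96 (10.96 ± 0.12 in TDESM and 8.00 ± 0.42 in TDECC, SD, n = 3 each). Gpc3, a glypican of the cell surface, was higher by 1.61, or by 0.86 averaged over its probe sets, and did not pass with the poly-A centring (0.33, adjusted p = 0.316).

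Of 25 cytoplasmic and nuclear transducers, 5 were higher and 7 lower (21.8% and 20.3% of all genes). All 3 Dact genes, whose proteins bind Dishevelled, were higher: Dact1 by 3.20, Dact3 by 2.95 and Dact2 by 1.40, the last falling to 0.13 with the poly-A centring. Among the Tle genes, Groucho co-repressors that partner with Tcf factors, Tle4 read 6.19, 5.90 and 5.79 in TDESM, against 8.88, 9.48 and 9.44 in TDECC, a difference of -3.31 (SE 0.20, limma adjusted p = 2.16e-05). Tle1 differed by -2.66 and Tnks2, a tankyrase that marks axin for removal, by -1.41. The groups did not overlap for any of these 6 genes. They were picked for the largest called differences, and 53.6% of all genes had no overlap, so nothing more is read from it.

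Of 12 planar polarity genes, 5 were higher and 2 lower (21.8% and 20.3% of all genes). Prickle1, a core component of that branch, read 10.53, 10.65 and 10.59 in TDESM, against 3.79, 4.76 and 4.55 in TDECC, a difference of 6.22 (SE 0.25, limma adjusted p = 2.71e-06, or 3.52 averaged over its probe sets). Its TDECC values were not shown to be above background, so the size may be understated. Its relative Prickle2 was higher by 3.32, and the formin Daam2 by 1.38, or 0.11 and no longer called with the poly-A centring. Scrib, a polarity scaffold of epithelia, was lower by a difference of -0.87, a call lost when centred on housekeeping genes (-0.39, adjusted p = 0.152). Invs differed by -0.70 (limma adjusted p = 0.0318), a call lost without any 1 TDESM replicate (adjusted p = 0.0709 to 0.107) and without TDECC replicate 1 (0.0663) or 3 (0.0521).

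Of 10 genes known as transcriptional targets in various tissues, 4 were higher and 2 lower, against 21.8% and 20.3% of all genes. Nothing is read from these counts. Nkd2, a Dishevelled-binding inhibitor, was higher by 3.04 and the matricellular gene Ccn4 by 5.73. The cyclin gene Ccnd1 differed by -2.92 and Cdx2, an intestinal homeobox factor, by -2.26. For Cd44, a cell surface receptor of hyaluronan, the difference of 1.15 passed, but not after leaving out TDESM replicate 2 or 3 (limma adjusted p = 0.0630 and 0.0622), and had the opposite sign, at -0.12, with the poly-A centring.

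**Figure D5:**
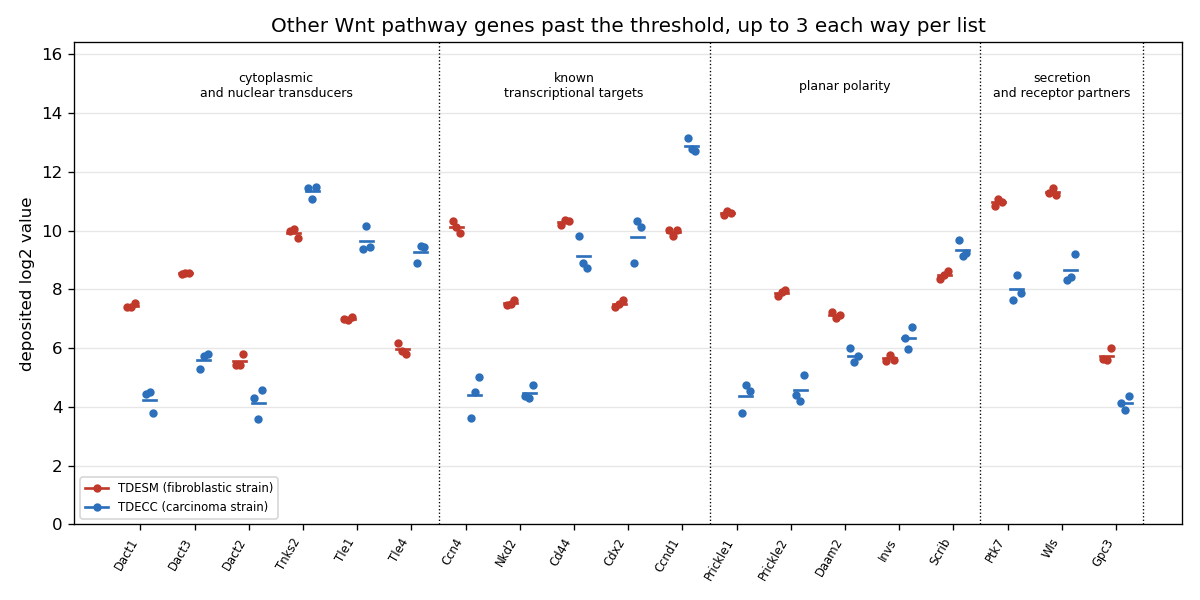
Deposited log2 value of each array (points) and the mean of 3 arrays (lines) for the other pathway genes past the threshold with the largest differences in each list, TDESM in red left of TDECC in blue. The genes were picked for their called differences, and none overlaps between strains (53.6% of all genes had no overlap). Prickle1 is 6.22 higher in TDESM (from a TDECC level not shown to be above background) and Tle4 3.31 lower. Cd44 has the opposite sign when arrays are centred on poly-A controls.

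The spread between arrays was unequal. For 52 of the 66 probe sets the SD was larger in TDECC than in TDESM, with medians of 0.11 in TDESM and 0.25 in TDECC. The limma fit uses 1 pooled spread per probe set for both strains.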

How the data were processed

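Total RNA of 3 TDESM and 3 TDECC samples was hybridised to rat Affymetrix arrays, with groups and replicate numbers from the sample titles. The deposited values are log2 intensities from RMA, as the submitters' processing notes name it without a version. RMA normally removes background, equalises the distributions of arrays and combines probes, so a difference in total mRNA between strains is lost.

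Of 31099 probe sets 57 were controls, 20832 named 1 gene symbol, 436 several and 9780 were not listed in the platform annotation. Entrez identifiers matched the RefSeq table (GRCr8) for 99.7% of the named ones and 0 symbols changed. The 31042 others were tested with limma 3.58.1 in R 4.3.3 (lmFit, eBayes) as TDESM minus TDECC, two-sided and with no filter on dim ones. P-values were adjusted by Benjamini-Hochberg over all of them, with a threshold of 0.05. The fit was tested on simulated data, and lists were described by counts, with no set test.

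The members and lists were chosen with earlier results of these data known. Values per array are given for members past the threshold with a log2 difference of at least 2, for Ctnnb1, Axin2, Lef1, Tcf7, Tcf7l1, Tcf7l2, Lrp5, Lrp6, Porcn and Ryk, and for members whose probe sets differ in call. Of the lists up to 3 genes each way are named. Alternatives were cyclic loess, centring on 10 housekeeping genes or on 24 poly-A control probe sets, a filter on dim probe sets, trended and robust eBayes, a replicate block, leaving out each array, a minimum log2 difference of 1, limma over genes and averaging a gene's probe sets. At most 5.75% of values were identical between any pair of arrays, so no array was a copy of another. Each array was counted as a sample, although separate cultures are not stated. The number of arrays limits the precision.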

Additional observations from a re-analysis of the deposited data

How the results depend on the processing

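Over all 40 members and 14 alternatives, 470 of 550 values kept their sign and side of the threshold. Among the others that kept their sign, 13 no longer passed and 24 newly passed. A further 43 changed sign and were counted only as such, although some of them also newly passed. Wnt1 with poly-A centring (-1.20, limma adjusted p = 3.00e-04) is an example. Each centring moves the differences of all genes by the same amount, so a sign that changes there follows from a small deposited difference. What lies behind the changes in the other alternatives was not tested. Of the 10 higher members 6 kept their call in every alternative and 10 when any 1 array was left out, and of the 7 lower members 4 and 5. Centred on housekeeping genes, 25 probe sets and 18 genes were higher (31.6% of all probe sets and 36.2% of all genes), 4 genes lower and 6 other pathway genes lower (10.2% of all genes). Centred on poly-A controls, 8 probe sets and 6 genes were higher (4.97% and 6.49%), 52 and 30 lower (83.8% and 80.0%), and 9 other pathway genes were higher and 39 lower. At a minimum log2 difference of 1, 10 genes were higher and 4 lower, and of the other pathway genes 14 and 6 (13.4% of all genes higher and 12.0% lower).

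Leaving out 1 array gave 14 to 15 probe sets higher (13.9% to 18.6% of all) and 9 to 14 lower (13.6% to 20.6%). It gave 10 to 11 genes higher and 5 to 8 lower, and 17 to 21 other pathway genes higher and 7 to 11 lower (17.1% to 23.4% of all genes higher and 14.7% to 21.3% lower).

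With poly-A centring 15 members changed sign. Rspo1 (-0.16) was the 1 of them called as deposited. Fzd3 (-0.90), Ryk (-0.86), Wnt1, Wnt2, Wnt2b, Wnt5b, Wnt6, Wnt7a, Wnt9a, Wnt16, Dkk2, Rspo3, Sfrp2 and Sfrp5 were the others, between -1.25 and -0.86. These others all passed as lower with that centring, as did 80.0% of all genes. Outside the members Cd44 turned (-0.12). With housekeeping centring 8 members changed sign, none of them called as deposited: Fzd5 (0.32), Sfrp1 (0.35), Wif1 (0.22), Axin2 (0.30), Tcf7 (0.46), Wnt8b (0.41), Wnt10a (0.46) and Wnt11 (0.41). Among the 3 members that turned with cyclic loess was Tcf7 (0.054). Among the 3 over the mean of probe sets was Sfrp1, which passed as higher (0.30, limma adjusted p = 0.0483). With 1 array left out, Sfrp1 ranged from -0.23 to 0.037, Axin2 from -0.53 to 0.19 and Tcf7 from -0.14 to 0.13.

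Same-numbered arrays did not deviate together (correlations of -0.037, -0.014 and -0.089), where different-numbered ones lay between -0.121 and 0.143. The labels state no pairing and these values show no sign of it, though a small shared effect would not be seen this way. With the replicate block 7 other pathway genes were lower (18.3% of all genes), Lrp6 passed (limma adjusted p = 0.0293) and Invs did not (0.0589). The lack of detection calls limits what dim probe sets can show.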
